A study of Homo sapiens with 17 samples.

Results

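The 31 genes described here encode most enzymes of cholesterol and fatty acid synthesis and 4 proteins that control them. They were taken by symbol, and all 31 of the 31 symbols were found among the 58870 gene entries of one expression table. The table holds 17 RNA sequencing libraries of MDA-MB-231, an established triple-negative breast cancer cell line, grown in RPMI medium with fetal bovine serum. Every library carries the same label of TRAIL treatment at 45 nM, a dose that the submitters call suboptimal and used to follow living cells. TRAIL is a secreted or membrane-bound ligand of the tumour necrosis factor family that binds death receptors. The libraries differ only in time with TRAIL: 3 libraries each at 0, 3, 6, 12 and 24 h, and 2 at 1 h. No untreated library of a later time is among the 17, so the effect of TRAIL and the effect of time in culture cannot be told apart. All libraries come from 1 cell line, and the labels do not say whether replicates were separate cultures, so the p-values measure only the spread between these libraries. In such bulk samples, fewer cells of a kind and less RNA per cell cannot be told apart.

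Cells build cholesterol from acetyl-CoA through mevalonate, farnesyl diphosphate, squalene and lanosterol, and build fatty acids from the same acetyl-CoA through malonyl-CoA. Most genes of both routes are targets of the transcription factors SREBP1 and SREBP2. These are held in the endoplasmic reticulum with SCAP while INSIG proteins and sterols are present, and are cut and released to the nucleus when sterols run low. SREBP2 mainly drives the sterol enzymes and SREBP1 the fatty acid enzymes.

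The libraries held 13731520 to 19234924 expected counts. All 31 genes passed the filter on low counts, as did 15365 genes in all. Levels are given in CPM, which are counts scaled by the TMM-adjusted library totals. The labelled cell type, mesenchymal basal B, was checked against 6 markers. VIM lay between 2495 and 3724 CPM, and AXL, CAV1, CD44 and ZEB1 were also expressed, while SPARC stayed between 0.216 and 1.07 CPM. The oestrogen receptor gene ESR1 reached at most 0.148 CPM, CDH1 at most 1.01 CPM and PTPRC, a marker of leukocytes, at most 0.334 CPM, while EPCAM lay between 13.1 and 19.3 CPM and GATA3 between 6.97 and 12.1 CPM; the summed level of 6 luminal and epithelial markers was 24.1 to 36.1 CPM. Of 6 leukocyte, red cell and endothelial markers, 5 were below 1 CPM in every library. Replicates 2 and 3 at 6 h and replicates 2 and 3 at 24 h stood closer to each other than other replicates did. The chi-square distance averaged over genes, expected near 1 from counting noise, was 1.57 and 1.67 for them, against 3.81 to 14.7 in the 14 other replicate pairs. Whether these close pairs were separate cultures is not given, so the libraries at 6 h and 24 h may not all be independent. Libraries also differed in how level depended on transcript length. The mean slope of log2 level per doubling of length was -0.098 at 3 h and 0.068 at 6 h, and the mean share of mitochondrial counts was 8.59% at 3 h and 4.49% at 6 h. Results that move with these 2 properties are given below with the length and GC trends of each library removed; the part of the mitochondrial share was not tested.

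The promoter windows of the genes were read for 5 short motifs, since SREBP binds a sterol regulatory element and often acts beside NF-Y, which binds CCAAT boxes. RefSeq (GRCh38.p14) windows from 250 bases before to 50 bases after the start were at hand for 27 of the 31 genes; ACAT2, FDFT1, SQLE and FASN were without one. Motifs were searched on both strands and matches could overlap. For some genes, among them DHCR7, FADS1, FADS2 and IDI1, the RefSeq start lay away from the GENCODE 29 gene start. The sterol regulatory element core, TCACNCCAC, was in 1 of the 27 windows (3.70%) and in 1.15% of all 27305 windows. The CCAAT box, CCAAT, was in 18 of the 27 windows (66.7%), against 35.7% of all windows and 36.6% of the 10563 windows of tested genes. The GC box, GGGCGG, was in 25 windows (92.6%), against 44.6% of all windows and 69.8% of those of tested genes. The E-box, CACGTG, was in 4 windows (14.8%), against 7.43% of all windows and 10.0% of those of tested genes. An NF-kB-like motif was in the window of TM7SF2 only (3.70%), against 1.92% of all windows and 2.18% of those of tested genes. These shares describe the windows and were not tested. The stretch of SREBF2 below is shown because it held the only exact match to the sterol regulatory element core. Those of SCD and DHCR7 are shown because these were the members called lower at all 4 times from 3 h on. Each runs 5′ to 3′ on the gene's strand and stops before the first base that GENCODE 29 puts in an exon of the gene; capitals mark the sterol regulatory element core and CCAAT boxes, the latter read as CCAAT or, on the opposite strand, as ATTGG.
SREBF2, chr22:41832855-41833078, plus strand: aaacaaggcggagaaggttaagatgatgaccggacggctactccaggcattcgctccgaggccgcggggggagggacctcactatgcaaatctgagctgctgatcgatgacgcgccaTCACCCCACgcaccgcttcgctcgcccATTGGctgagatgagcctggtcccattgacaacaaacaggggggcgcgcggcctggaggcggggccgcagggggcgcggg
SCD, chr10:100346983-100347123, plus strand: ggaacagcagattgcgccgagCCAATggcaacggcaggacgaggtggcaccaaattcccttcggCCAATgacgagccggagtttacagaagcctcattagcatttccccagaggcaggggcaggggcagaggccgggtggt
DHCR7, chr11:71448436-71448643, minus strand: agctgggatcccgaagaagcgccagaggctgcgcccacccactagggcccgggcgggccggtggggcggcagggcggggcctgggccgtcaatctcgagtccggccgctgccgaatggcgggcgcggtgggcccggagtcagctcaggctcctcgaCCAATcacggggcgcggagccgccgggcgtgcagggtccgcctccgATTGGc

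In SREBF2 the sterol regulatory element core began 133 bases before the RefSeq start and was followed by a CCAAT box that began 106 bases before it. SCD had CCAAT boxes that began 229 and 186 bases before the start, and DHCR7 at 94 and 48 bases before it.

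The 31 genes moved by small amounts and not all in one direction. Tests were edgeR quasi-likelihood tests with Benjamini-Hochberg adjustment over 15365 genes, and a gene was called at an adjusted p below 0.05. Over all times 25 of the 31 genes (80.6%) changed, against 64.2% of all genes tested; HMGCS1, PMVK, MVD, IDI1, CYP51A1 and SCAP did not pass. None of the 31 was called at 2-fold or more against 0 h, and their largest fitted fold was 1.49, for SCD at 24 h. Comparisons with 0 h share the 0 h libraries and are not independent of each other. At 1 h no member was called, where 0.260% of all genes were called higher and 0.0521% lower. At 3 h 9 members fell (29.03%, against 8.71% of all genes) and 1 rose (3.23%, against 9.04%). Without 0 h replicate 2, and likewise without 3 h replicate 1, 5 members fell at 3 h. For this and later counts with a library left out or with the close replicates averaged, the share over all genes is not given. At 6 h 10 members fell (32.3%, against 13.2%) and 3 rose (9.68%, against 16.9%). That count of 10 was 6 without 0 h replicate 1 or 0 h replicate 2, 5 without 6 h replicate 2 and 3 without 6 h replicate 3; 1 member rose without 0 h replicate 1 or 6 h replicate 3. With the close replicates 2 and 3 averaged, 5 members fell and 1 rose at 6 h. At 12 h 6 members fell (19.4%, against 6.48%) and 1 rose (3.23%, against 5.96%), and 3 fell without 12 h replicate 2. At 24 h 5 members fell (16.1%) and 2 rose (6.45%); this was near the background for falls (17.1%) and below it for rises (18.0%). The median log2 fold change of the 31 genes was -0.12 after 3 h, -0.090 after 6 h, -0.073 after 12 h and 0.026 after 24 h, beside medians of all genes between -0.022 and -0.0017.

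**Figure D1:**
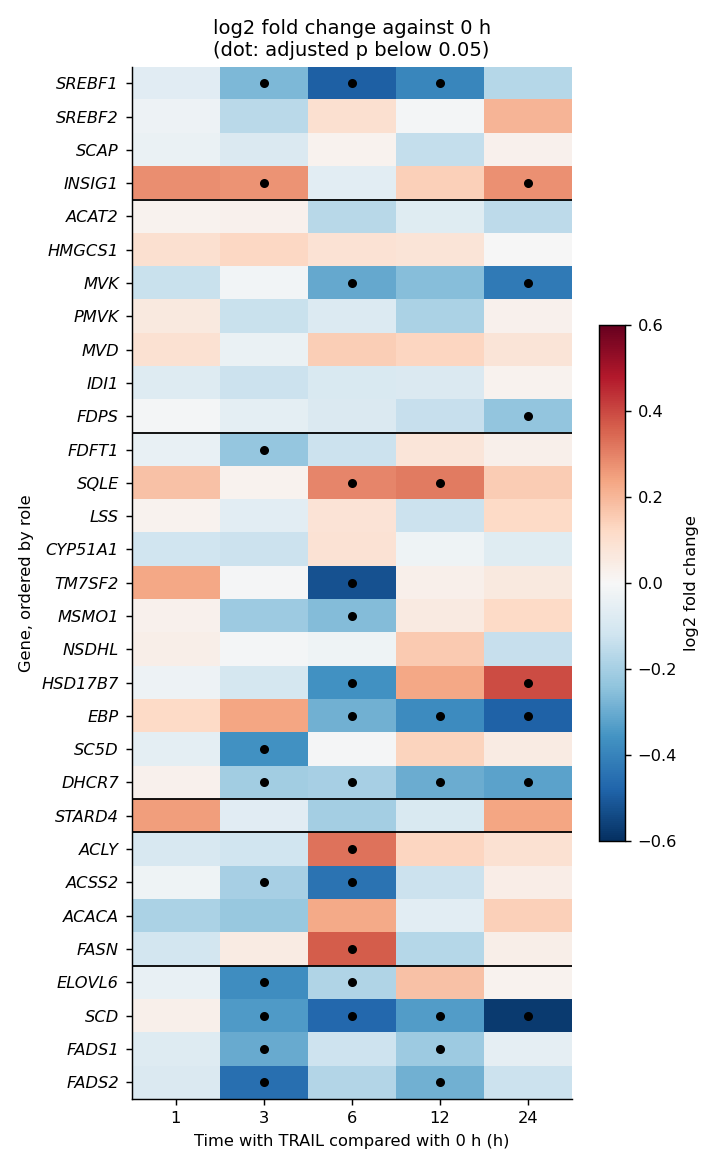
Log2 fold change of each of the 31 genes (rows, ordered by role and divided by lines into control, mevalonate route, squalene to cholesterol, sterol transport, fatty acid synthesis, and elongation and desaturation) at 1, 3, 6, 12 and 24 h against 0 h (columns). Blue is lower and red higher than 0 h, and dots mark an adjusted p below 0.05; the last 4 rows are all lower with dots at 3 h, and SCD and DHCR7 keep dots from 3 h to 24 h.

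Between consecutive times the members had 34 calls, of which 17 lay between 3 h and 6 h, the step that also had the most calls over all genes. At 3 h against 1 h, 3 members fell (9.68%, against 2.56% of all genes) and none rose (3.17% of all genes did); the 3 were SCD, FADS2 and ELOVL6, and none was called without 1 h replicate 1, which leaves 1 library at 1 h whose spread is taken from the other times. At 6 h against 3 h, 10 members rose (32.3%, against 22.9%) and 7 fell (22.6%, near the 20.3% of all genes). Of the 10, 4 rose without 3 h replicate 2 or 6 h replicate 3 and 5 without 6 h replicate 2, and 3 fell without 3 h replicate 2. At 12 h against 6 h, 6 members rose (19.4%, against 8.70%) and 4 fell (12.9%, against 11.9%); the count of falls was 1 without 6 h replicate 2, 6 h replicate 3 or 12 h replicate 1, and 2 without 12 h replicate 3. At 24 h against 12 h, 2 rose (6.45%, against 6.42%) and 2 fell (6.45%, against 5.60%), which is near the background in both directions. Each of the 4 calls was lost without 24 h replicate 2, and each was lost with the close replicates averaged. That averaging gave 4 rises and 5 falls at 6 h against 3 h, and 4 rises and 1 fall at 12 h against 6 h.

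**Figure D2:**
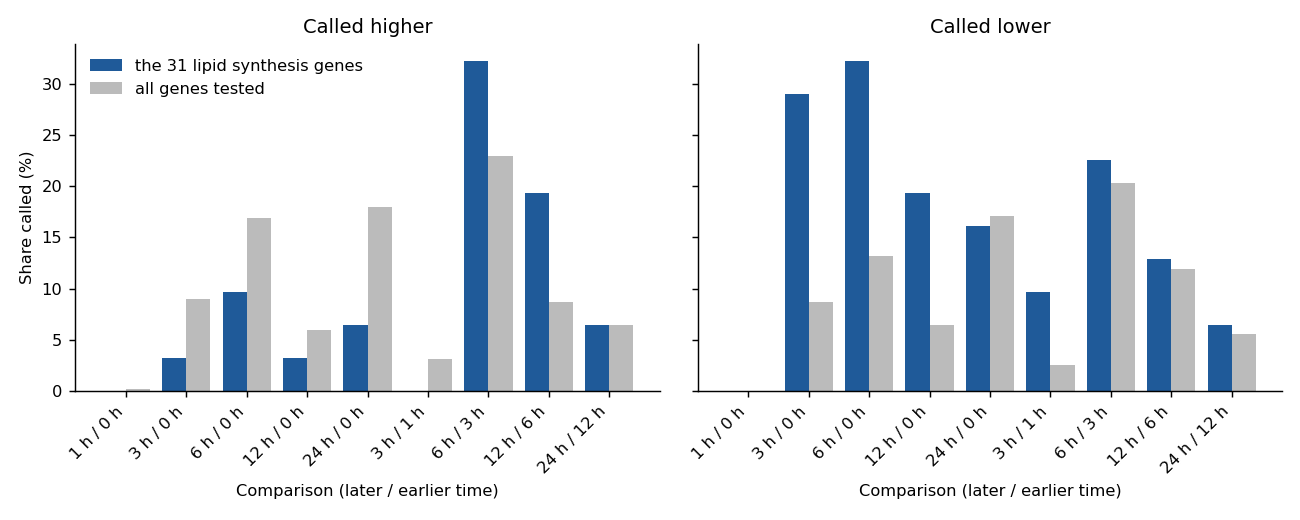
Share of the 31 genes (blue) and of all 15365 genes tested (grey) called higher (left) and lower (right) in each comparison, in percent. Against 0 h the blue bars exceed the grey ones for falls at 3, 6 and 12 h and stay below them for rises at 3, 6, 12 and 24 h.

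Among the control genes, the mRNA of SREBP1 fell and that of SREBP2 was not called against 0 h. SREBF1 (ENSG00000072310, chr17:17810399-17837002) encodes SREBP1. Its level was 74.5, 81.7 and 65.6 CPM at the start, 69.1 and 71.8 after 1 h, 62.4, 64.6 and 56.8 after 3 h, 52.3, 52.3 and 53.2 after 6 h, 59.3, 50.4 and 59.5 after 12 h, and 63.6, 68.2 and 65.4 after 24 h. All libraries at 3, 6 and 12 h lay below all libraries at 0 h, and the 6 h libraries were within 1 CPM of each other. SREBF1 fell by 0.49 ± 0.079 (SE) on the log2 scale at 6 h (edgeR adjusted p = 0.000189) and by 0.39 ± 0.078 at 12 h (adjusted p = 0.00299), and both calls held in all 29 alternatives. Its fall of 0.27 at 3 h was lost without 0 h replicate 1 or 2 or 3 h replicate 1 or 3, where the log2 fold change was -0.28 to -0.19 (adjusted p 0.0503 to 0.134). Its fall of 0.22 at 6 h against 3 h was lost without any of 3 h replicates 1 and 2 and the 3 replicates at 6 h (-0.23 to -0.18), with no filter, with scaling by library size alone, and with the close replicates 2 and 3 averaged (-0.23, adjusted p = 0.0775). At 24 h its log2 fold change was -0.17, which was not called. The counts of SREBF1 were fractional in all 17 libraries, so the quantification shared some of its reads with other entries.

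SREBF2 (ENSG00000198911, chr22:41833079-41907308) encodes SREBP2. It measured 45.9, 54.4 and 55.4 CPM at the start, 54.8 and 46.9 after 1 h, 45.7, 46.2 and 47.5 after 3 h, 48.9, 61.2 and 56.5 after 6 h, 48.2, 50.7 and 55.5 after 12 h, and 55.2, 65.1 and 59.3 after 24 h. The libraries of every later time overlapped those at 0 h, and the lowest level at 6 h was above the highest at 3 h. Its only call was a rise of 0.26 ± 0.093 at 6 h against 3 h (edgeR adjusted p = 0.0320). With the length and GC trends removed the value was 0.14 (adjusted p = 0.149), and without any 1 of the 3 h libraries or 6 h replicates 2 and 3 it was 0.18 to 0.27 (adjusted p 0.0508 to 0.169). The call was also lost with upper-quartile scaling and with the close replicates averaged (0.20, adjusted p = 0.138). SCAP, the sterol sensor that escorts SREBP, was not called in any comparison, with log2 fold changes against 0 h of -0.14 to 0.026.

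INSIG1 (ENSG00000186480, chr7:155297776-155310235) encodes the protein that retains SCAP and SREBP in the endoplasmic reticulum, and is itself an SREBP target. It measured 30.1, 28.97 and 34.1 CPM at the start, 41.1 and 34.3 after 1 h, 36.9, 35.4 and 40.0 after 3 h, 28.1, 29.9 and 31.03 after 6 h, 35.1, 33.7 and 34.3 after 12 h, and 39.3, 35.4 and 38.1 after 24 h. The libraries at 1, 3 and 24 h all lay above those at 0 h, while those at 6 h and 12 h overlapped them. At 1 h the log2 fold change was 0.28 ± 0.091 and not called (adjusted p = 0.524). INSIG1 rose by 0.27 ± 0.083 at 3 h (edgeR adjusted p = 0.0298) and by 0.28 ± 0.082 at 24 h (adjusted p = 0.0135), and fell by 0.33 ± 0.083 at 6 h against 3 h (adjusted p = 0.00309). The fall at 6 h against 3 h held in all 29 alternatives. The rise at 3 h was lost without 0 h replicate 1 or 2 or 3 h replicate 1 or 3 (0.22 to 0.28, adjusted p 0.0612 to 0.126) and with scaling by library size alone or no filter. The rise at 24 h was lost without 0 h replicate 1 or 2 (0.23 to 0.25, adjusted p 0.0572 to 0.0651). Two-sided exact permutation tests of log2 CPM gave p = 0.2 after 1 h, 0.1 after 3 h, 0.6 after 6 h, 0.2 after 12 h and 0.1 after 24 h, where 0.2 is the smallest p the libraries allow at 1 h and 0.1 at the other times.

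Other genes of the same control system were taken from a list of 11. Their proteins process, hold, modify or degrade SREBP, SCAP and INSIG, or regulate these steps. At 6 h 6 of the 11 rose (54.5%, against 16.9% of all genes) and none fell (13.2% of all genes did), and at 24 h 4 rose (36.4%, against 18.0%) and none fell (17.1% of all genes did); their median log2 fold changes were 0.25 and 0.25. At 3 h 2 rose (18.2%, against 9.04%) and 2 fell (18.2%, against 8.71%). The mean length slope of the libraries was 0.068 at 6 h and 0.095 at 24 h, against -0.037 at 0 h. Values of these 11 genes with this trend removed are not given here. Of the 11, the 3 with the smallest p over all times were RNF145, MBTPS1 and MBTPS2. RNF145, a ubiquitin ligase of the endoplasmic reticulum, rose by 0.36 at 6 h (edgeR adjusted p = 0.000421) and by 0.39 at 24 h (adjusted p = 0.000195). MBTPS2, the site-2 protease that makes the second cut in SREBP, rose by 0.55 at 6 h (adjusted p = 0.00874) and 0.57 at 24 h (adjusted p = 0.00573). MBTPS1, the site-1 protease, fell by 0.19 at 3 h (adjusted p = 0.0295) and rose by 0.28 at 24 h (adjusted p = 0.00119).

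**Figure D3:**
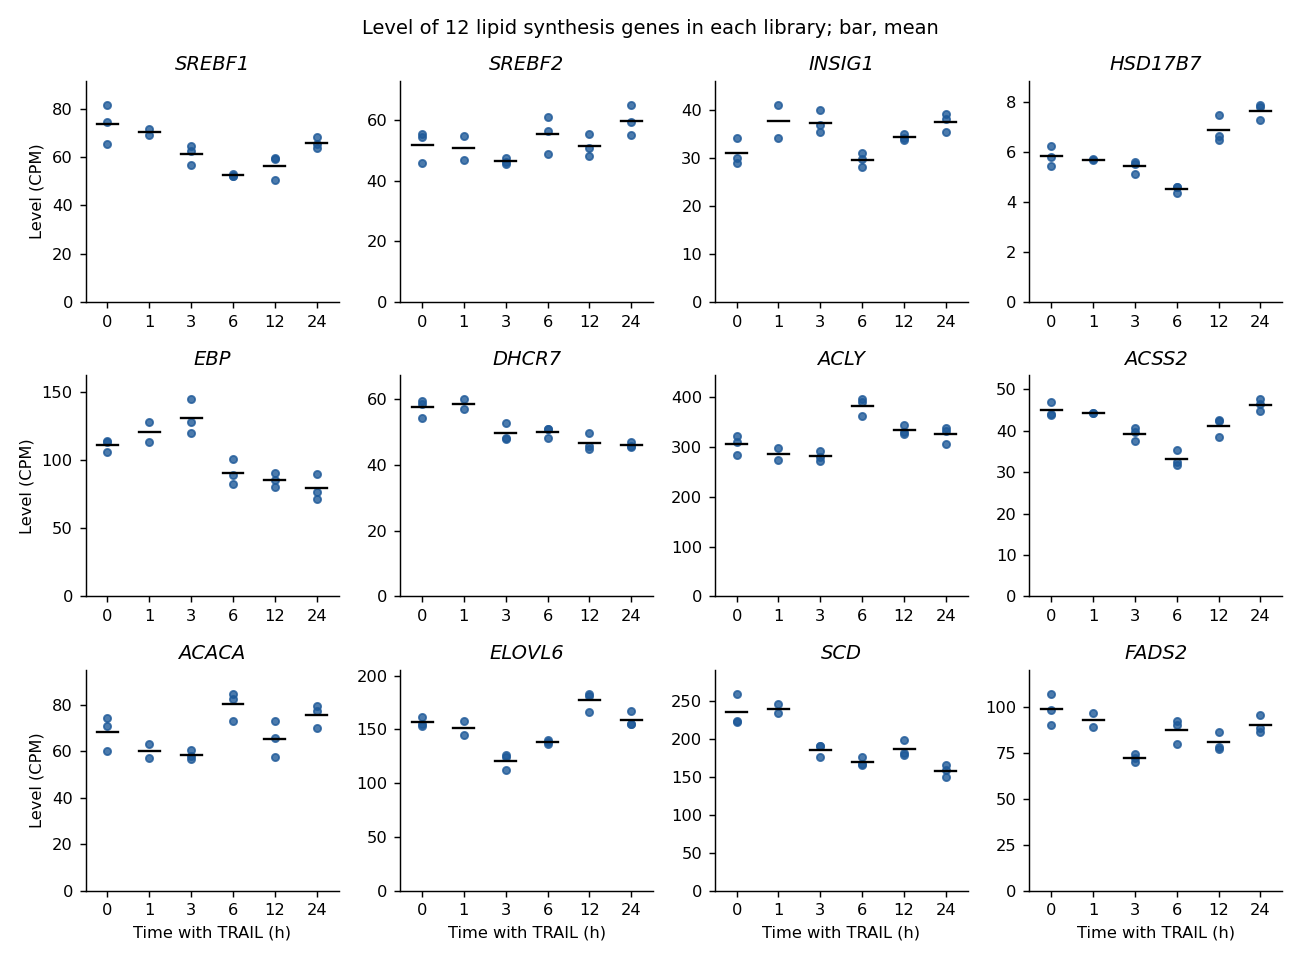
Level in CPM (vertical axes, starting at 0) of 12 genes in each library (points) and the mean of each time (bars), against time with TRAIL (0, 1, 3, 6, 12 and 24 h, evenly spaced). SCD and DHCR7 are below their 0 h points from 3 h on, EBP from 6 h on, and ELOVL6 is lowest at 3 h and has its highest mean at 12 h.

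Of the 7 enzymes of the mevalonate route, 3 changed over all times (42.9%, against 64.2% of all genes). At 6 h 1 fell (14.3%, near the 13.2% of all genes), and at 24 h 2 fell (28.6%, against 17.1%). At 6 h against 3 h 2 fell (28.6%, against 20.3%). Without removal of length and GC trends, MVK and FDPS were the only ones called against 0 h, and no mevalonate enzyme rose in any comparison. MVK, mevalonate kinase, measured 18.0, 20.8 and 17.7 CPM at the start, 14.7, 15.6 and 15.4 after 6 h, and 15.7, 13.3 and 13.1 after 24 h. Every library at 6 h and 24 h was below every library at 0 h. MVK fell by 0.42 ± 0.093 on the log2 scale at 24 h (edgeR adjusted p = 0.00192), in all 29 alternatives. It fell by 0.31 at 6 h and by 0.29 at 6 h against 3 h. The first of these was lost without 0 h replicate 2 or 6 h replicate 3 (-0.32 to -0.23), and the second without 3 h replicate 2 or 6 h replicate 1 (-0.27 to -0.21), with scaling by library size alone or with no filter. FDPS, which makes farnesyl diphosphate, had means of 148 ± 3.96 CPM at 0 h and 125 ± 4.36 CPM at 24 h (SD, n = 3) and fell by 0.24 (adjusted p = 0.00224), but the value was -0.082 (adjusted p = 0.175) with length and GC trends removed. ACAT2, an acetyl-CoA acetyltransferase at the head of the route, fell by 0.19 at 6 h against 3 h. That call was lost without 3 h replicates 2 or 3 or 6 h replicates 2 or 3 (-0.19 to -0.16), with scaling by library size alone, with no filter and with the close replicates averaged (-0.18, adjusted p = 0.0748). HMGCS1, the synthase that makes HMG-CoA, stayed within log2 fold changes of -0.0033 and 0.12 against 0 h. PMVK, MVD and IDI1, which carry mevalonate phosphate to the isoprene units, were not called in any comparison without removal of these trends. With length and GC trends removed, MVD was called against 0 h at 6, 12 and 24 h, and PMVK at 3 and 24 h. ACAT2 was then called against 0 h at 6 and 24 h, and FDPS at 3 h. HMGCS1, MVD and PMVK then also changed over all times. The sizes and directions of these added calls are not given here. Without the removal, the log2 fold changes at the same times were 0.15, 0.13 and 0.079 for MVD and -0.14 and 0.025 for PMVK. They were -0.17 and -0.16 for ACAT2 and -0.059 for FDPS. The highest library exceeded the lowest 1.27-fold for HMGCS1 and MVD, 1.35-fold for IDI1 and 1.37-fold for PMVK.

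Of the 11 enzymes from squalene to cholesterol, 10 changed over all times (90.9%, against 64.2% of all genes), in different directions. EBP and DHCR7, which act late in the route, were lower from 6 h on, HSD17B7 was lower at 6 h and higher at 24 h, and SQLE was higher at 6 and 12 h. EBP (ENSG00000147155, chrX:48521158-48528716), the sterol isomerase, measured 114, 114 and 106 CPM at the start, 113 and 128 after 1 h, 128, 145 and 120 after 3 h, 101, 82.7 and 89.2 after 6 h, 90.4, 80.7 and 85.8 after 12 h, and 89.8, 71.6 and 76.8 after 24 h. The libraries at 3 h lay above, and those at 6, 12 and 24 h below, all libraries at 0 h. The rise at 3 h (0.24) was not called. EBP fell by 0.48 ± 0.090 on the log2 scale at 24 h (edgeR adjusted p = 0.000565) and by 0.53 ± 0.089 at 6 h against 3 h (adjusted p = 0.000193), in all 29 alternatives. It fell by 0.38 ± 0.089 at 12 h, which was lost only without 12 h replicate 2 (-0.34, adjusted p = 0.0603). Its fall of 0.29 at 6 h was -0.17 (adjusted p = 0.0418) with length and GC trends removed, and was lost without 0 h replicate 1 or 2 or 6 h replicate 2 or 3 (-0.28 to -0.23) and with the close replicates averaged (-0.26, adjusted p = 0.0793).

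DHCR7 (ENSG00000172893, chr11:71428193-71452868), the reductase that makes cholesterol from 7-dehydrocholesterol, measured 58.5, 59.5 and 54.2 CPM at the start, 56.9 and 59.9 after 1 h, 48.2, 52.8 and 47.9 after 3 h, 50.9, 48.0 and 51.0 after 6 h, 45.7, 44.9 and 49.5 after 12 h, and 45.3, 46.9 and 45.8 after 24 h. All 12 libraries from 3 h on were below all libraries at 0 h and 1 h. DHCR7 fell by 0.30 ± 0.063 at 12 h (edgeR adjusted p = 0.00459) and 0.32 ± 0.063 at 24 h (adjusted p = 0.000912), in all 29 alternatives. The falls of 0.21 at 3 h and 0.20 at 6 h did not hold in every alternative. The first was lost without 0 h replicate 1 or 2 or 3 h replicate 1 or 3 (-0.19 to -0.18) and in a fit of these 2 times only. The second was lost without 0 h replicate 1 or 2 or 6 h replicate 2 or 3 (-0.21 to -0.17), with no filter, with the close replicates averaged (-0.20, adjusted p = 0.0669) and with length and GC trends removed (-0.12, adjusted p = 0.0636).

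HSD17B7 (ENSG00000132196, chr1:162790702-162812817) encodes a 3-ketosteroid reductase of the C4 demethylation step. It was the only member called in both directions against 0 h. Its level was low, at 5.79, 6.23 and 5.41 CPM at the start, 5.70 and 5.67 after 1 h, 5.12, 5.51 and 5.59 after 3 h, 4.36, 4.58 and 4.59 after 6 h, 7.47, 6.47 and 6.61 after 12 h, and 7.79, 7.25 and 7.87 after 24 h. The 6 h libraries were the lowest of all, and those at 12 h and 24 h were above every library from 0 h to 6 h. HSD17B7 rose by 0.60 ± 0.11 at 12 h against 6 h (edgeR adjusted p = 0.000796) and by 0.39 ± 0.11 at 24 h against 0 h (adjusted p = 0.00755), in all 29 alternatives. Its fall of 0.36 at 6 h was lost without 0 h replicate 1 or 2 or any 1 of the 6 h libraries (-0.38 to -0.31), with no filter, with DESeq2 and with the close replicates averaged (-0.39, adjusted p = 0.0508), and was -0.22 (adjusted p = 0.196) with length and GC trends removed. Its counts were fractional in 16 of 17 libraries, so reads shared with a near-identical copy may be split between entries.

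SQLE, MSMO1 and TM7SF2 had 2 or 3 calls each. SQLE, squalene epoxidase, had means of 15.8 ± 1.11 CPM at the start, 19.4 ± 0.423 after 6 h and 19.6 ± 0.447 after 12 h (SD, n = 3), with no overlap with 0 h. It rose by 0.29 ± 0.085 at 6 h (edgeR adjusted p = 0.0145), by 0.31 ± 0.085 at 12 h (adjusted p = 0.0206) and by 0.27 at 6 h against 3 h. These were lost without 0 h replicate 1 or 2 or 6 h replicate 3 (0.25 to 0.28), without 0 h replicate 1 or 2 or 12 h replicate 2 or 3 (0.27 to 0.32), and without 3 h replicate 2 or 6 h replicate 3 (0.18 to 0.25), in that order. With the close replicates averaged the rises at 6 h were 0.28 against 0 h (adjusted p = 0.0631) and 0.26 against 3 h (adjusted p = 0.0540), and the latter was also lost with upper-quartile scaling. MSMO1, a sterol C4 methyl oxidase, fell by 0.26 at 6 h, which was lost without 0 h replicate 3 or 6 h replicate 3 (-0.23 to -0.18). It then rose by 0.31 ± 0.079 at 12 h against 6 h (adjusted p = 0.00890), in all 29 alternatives, from 28.5 ± 1.09 to 35.3 ± 0.212 CPM. TM7SF2, a sterol C14 reductase, had 7.90, 7.60 and 8.09 CPM at the start and 5.81, 5.24 and 5.34 CPM after 6 h. Its 6 h level was below all 0 h libraries, and its log2 fold change was -0.52 (adjusted p = 0.0181), or -0.35 (adjusted p = 0.0515) with length and GC trends removed; without 0 h replicate 1 or 6 h replicate 2 or 3 it was -0.52 to -0.50 and not called, as with the close replicates averaged (-0.51, adjusted p = 0.0584). TM7SF2 also fell by 0.52 at 6 h against 3 h, lost without 3 h replicate 1 or 2 (-0.48 to -0.37) and -0.29 with the trends removed, and rose by 0.55 at 12 h against 6 h, lost without 6 h replicate 2 or 3 or 12 h replicate 1 (0.50 to 0.54) and with the close replicates averaged (0.54, adjusted p = 0.0633).

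The remaining genes of the sterol group had 1 or 2 calls each, and each call was lost when at least 1 library was left out. SC5D, a sterol desaturase, fell by 0.36 at 3 h and rose by 0.35 at 6 h against 3 h. The fall was lost without 0 h replicate 3 or 3 h replicate 1 or 2 (-0.36 to -0.21), and the rise without 3 h replicate 2 or 6 h replicate 2 or 3 (0.27 to 0.32) or with the close replicates averaged (0.31, adjusted p = 0.0788). FDFT1, squalene synthase, fell by 0.23 at 3 h and rose by 0.20 at 12 h against 6 h. The first was lost without 0 h replicate 2 or 3 or 3 h replicate 2 or 3 (-0.23 to -0.18) or in a fit of these 2 times only, and the second without any 1 of the 6 h libraries or 12 h replicate 2 or 3 (0.17 to 0.24), with no filter, with the close replicates averaged (0.22, adjusted p = 0.0806) or with the trends removed (0.16). LSS, lanosterol synthase, fell by 0.21 at 12 h against 6 h, lost without 6 h replicate 2 or 3 or 12 h replicate 1 or 2 (-0.21 to -0.18), with upper-quartile or library-size scaling and with no filter, and -0.14 with the trends removed. It rose by 0.25 at 24 h against 12 h, lost without 12 h replicate 1 or 24 h replicate 2 or 3 (0.22 to 0.25) and 0.16 with the trends removed. With the close replicates averaged neither LSS call was made (-0.18, adjusted p = 0.120, and 0.22, adjusted p = 0.106). NSDHL, a C4 sterol dehydrogenase, fell by 0.29 at 24 h against 12 h, lost without 12 h replicate 3 or 24 h replicate 2 or 3 (-0.26 to -0.23) or with the close replicates averaged (-0.25, adjusted p = 0.114). CYP51A1, lanosterol demethylase, was called only at 6 h against 3 h (0.22), and that call was lost without any 1 of 9 libraries: 0 h replicate 1, 3 h replicates 1 and 2, 6 h replicates 2 and 3, 12 h replicates 1 and 3, and 24 h replicates 2 and 3 (0.16 to 0.22). It was also lost with upper-quartile scaling, a fit of these 2 times only, averaged close replicates, limma-voom and DESeq2. STARD4, a carrier that moves cholesterol between membranes, was likewise called once, with a rise of 0.33 at 24 h against 12 h. It was lost without 6 h replicate 2 or 3, 12 h replicate 1 or 3, or 24 h replicate 2 or 3 (0.23 to 0.34), with upper-quartile scaling, in a fit of these 2 times only and with the close replicates averaged (0.29, adjusted p = 0.166).

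The 4 genes of fatty acid synthesis split at 6 h: ACLY and FASN rose, ACSS2 fell, and ACACA rose against 3 h but was not called against 0 h. ACLY (ENSG00000131473, chr17:41866908-41930542), ATP citrate lyase, makes cytosolic acetyl-CoA from citrate. It measured 284, 323 and 310 CPM at the start, 298 and 275 after 1 h, 281, 271 and 293 after 3 h, 362, 391 and 397 after 6 h, 326, 345 and 330 after 12 h, and 307, 333 and 338 after 24 h. The 6 h libraries were the highest of all 17. ACLY rose by 0.33 ± 0.061 at 6 h against 0 h (edgeR adjusted p = 0.000675) and by 0.44 ± 0.061 against 3 h (adjusted p = 4.05e-05), in all 29 alternatives. Its fall of 0.20 at 12 h against 6 h was lost without 6 h replicate 2 or 3 or 12 h replicate 1 or 3 (-0.19 to -0.17), with upper-quartile or library-size scaling and with the close replicates averaged (-0.17, adjusted p = 0.120).

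ACSS2 (ENSG00000131069, chr20:34872146-34927962), which makes acetyl-CoA from acetate, moved the other way. It measured 44.1, 47.0 and 43.9 CPM at the start, 44.2 and 44.3 after 1 h, 40.6, 39.7 and 37.5 after 3 h, 35.3, 32.6 and 31.7 after 6 h, 42.6, 38.6 and 42.3 after 12 h, and 47.7, 44.7 and 46.4 after 24 h. The 6 h libraries were the lowest of all 17, and those at 24 h overlapped those at 0 h. ACSS2 fell by 0.44 ± 0.066 at 6 h (edgeR adjusted p = 9.67e-05) and rose by 0.31 ± 0.066 at 12 h against 6 h (adjusted p = 0.00263), in all 29 alternatives. Its fall of 0.24 at 6 h against 3 h was lost only with no filter on low counts. Its fall of 0.20 at 3 h (adjusted p = 0.0446) was lost when any 1 of 14 libraries was left out, namely every library except 6 h replicate 1, 12 h replicate 2 and 24 h replicate 1 (-0.22 to -0.16, adjusted p 0.0502 to 0.154), with no filter, in a fit of these 2 times only and with the close replicates averaged.

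ACACA (ENSG00000278540, chr17:37084988-37406818), acetyl-CoA carboxylase, makes malonyl-CoA and commits carbon to fatty acids. It measured 59.9, 74.4 and 70.7 CPM at the start, 63.0 and 56.9 after 1 h, 60.4, 56.5 and 58.1 after 3 h, 73.1, 84.7 and 82.4 after 6 h, 57.7, 72.8 and 65.6 after 12 h, and 69.8, 77.4 and 79.4 after 24 h. The 6 h and 0 h libraries overlapped, and all 6 h libraries were above all 3 h libraries. ACACA rose by 0.46 ± 0.090 at 6 h against 3 h (edgeR adjusted p = 0.000567), in all 29 alternatives, and the value was 0.24 (adjusted p = 0.00417) with length and GC trends removed. Its fall of 0.29 at 12 h against 6 h was lost without 6 h replicate 2 or 3 or 12 h replicate 1 or 3 (-0.29 to -0.22), with upper-quartile or library-size scaling and with the close replicates averaged (-0.25, adjusted p = 0.122). FASN, fatty acid synthase, had 153, 187 and 169 CPM at the start, 185, 179 and 161 after 3 h, 189, 234 and 232 after 6 h, and 152, 139 and 161 after 12 h. Its 6 h libraries were above those of the other 3 times, replicates 2 and 3 most of all. FASN fell by 0.54 ± 0.10 at 12 h against 6 h (adjusted p = 0.00128), in all 29 alternatives and by 0.37 with the trends removed. Its rises at 6 h did not hold in every alternative. The rise of 0.36 against 0 h (adjusted p = 0.0120) was lost without 0 h replicate 1 or 6 h replicate 2 or 3 (0.30 to 0.32) or with the close replicates averaged (0.30, adjusted p = 0.0724). That of 0.32 against 3 h was 0.21 with the trends removed and was lost without 3 h replicate 3 or 6 h replicate 2 or 3 (0.26 to 0.27) or with the close replicates averaged (0.26, adjusted p = 0.0855).

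All 4 elongation and desaturation genes fell at 3 h, where 8.71% of all genes fell, and each of these 4 calls held in all 29 alternatives. SCD (ENSG00000099194, chr10:100347124-100364834), stearoyl-CoA desaturase, puts the first double bond into saturated fatty acids. It measured 222, 223 and 260 CPM at the start, 246 and 234 after 1 h, 190, 176 and 191 after 3 h, 166, 176 and 167 after 6 h, 181, 179 and 198 after 12 h, and 149, 158 and 166 after 24 h. All 12 libraries from 3 h on were below all 5 libraries at 0 h and 1 h. SCD fell by 0.34 ± 0.066 on the log2 scale at 3 h (edgeR adjusted p = 0.00163), 0.47 ± 0.066 at 6 h (adjusted p = 4.99e-05), 0.34 ± 0.066 at 12 h (adjusted p = 0.00261) and 0.58 ± 0.066 at 24 h (adjusted p = 5.53e-06). These 4 calls also held in all 29 alternatives, and the fall at 24 h was 0.73 with length and GC trends removed. The fall of 0.37 at 3 h against 1 h was lost without 1 h replicate 1 (-0.34, adjusted p = 0.0771). The fall of 0.24 at 24 h against 12 h was lost without 12 h replicate 1 or 3 or 24 h replicate 1 or 2 (-0.25 to -0.19), with scaling by library size alone and with the close replicates averaged (-0.26, adjusted p = 0.0705).

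ELOVL6 (ENSG00000170522, chr4:110045846-110199199), which lengthens palmitate, fell early and returned. It measured 156, 153 and 161 CPM at the start, 158 and 145 after 1 h, 126, 113 and 124 after 3 h, 140, 138 and 137 after 6 h, 181, 183 and 167 after 12 h, and 155, 167 and 155 after 24 h. The 3 h libraries were the lowest of all 17 and those at 12 h lay above those at 0 h. ELOVL6 fell by 0.37 ± 0.059 at 3 h (edgeR adjusted p = 0.000271) and rose by 0.36 ± 0.058 at 12 h against 6 h (adjusted p = 0.000309), in all 29 alternatives. At 12 h against 0 h the log2 fold change was 0.18 and not called. The fall of 0.18 at 6 h was 0.33 with length and GC trends removed, and was lost without 0 h replicate 1 or 3 or 6 h replicate 2 or 3 (-0.18 to -0.16), with no filter and with the close replicates averaged (-0.19, adjusted p = 0.0670). The fall at 3 h against 1 h (0.32) was lost without 1 h replicate 1 (-0.27) and in a fit of these 2 times only. The rise of 0.19 at 6 h against 3 h was lost without 3 h replicate 2 (0.14) or with upper-quartile scaling, and changed sign with length and GC trends removed (-0.037, adjusted p = 0.605).

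FADS2 (ENSG00000134824, chr11:61792980-61867354), the delta-6 desaturase of polyunsaturated fatty acids, measured 90.3, 107 and 98.3 CPM at the start, 96.8 and 89.2 after 1 h, 72.1, 74.2 and 69.8 after 3 h, 79.8, 92.3 and 90.2 after 6 h, 77.3, 78.5 and 86.3 after 12 h, and 88.3, 95.4 and 86.5 after 24 h. The 3 h libraries were below all others, and the 12 h libraries below those at 0 h. FADS2 fell by 0.45 ± 0.073 at 3 h (edgeR adjusted p = 0.000302) and rose by 0.28 ± 0.074 at 6 h against 3 h (adjusted p = 0.00467), both in all 29 alternatives. Its fall of 0.29 at 12 h was lost without 0 h replicate 2 or 12 h replicate 2 (-0.27 to -0.22), and that of 0.37 at 3 h against 1 h without 1 h replicate 1 (-0.31). FADS1, the delta-5 desaturase, had means of 126 ± 5.71 CPM at 0 h and 102 ± 7.86 CPM at 3 h (SD, n = 3) and fell by 0.30 ± 0.069 (adjusted p = 0.00578). Its fall of 0.22 at 12 h was lost without any 1 of 9 libraries (0 h replicates 2 and 3, replicates 2 and 3 at 6 h and 24 h, and all 3 at 12 h, with -0.23 to -0.19), with scaling by library size alone and with the close replicates averaged (-0.22, adjusted p = 0.0518). Its rise of 0.18 at 6 h against 3 h was lost without any 1 of 11 libraries (0 h replicates 2 and 3, 3 h replicates 1 and 2, replicates 2 and 3 at 6 h and 24 h, and all 3 at 12 h, with 0.13 to 0.18) and was 0.084 with the trends removed. It was also lost with RLE or upper-quartile scaling, a fit of these 2 times only, averaged close replicates and DESeq2. The gene models of FADS1 and FADS2 overlap on opposite strands of chromosome 11, and both had fractional counts in 15 of 17 libraries. The kit keeps strand, but whether counting used it is not given in the sources used here, so part of the reads of one could be counted for the other.

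The step from 3 h to 6 h is the one where library properties moved most. The share of all genes called is not given for the fits in this paragraph, so the counts do not show what is particular to the members. With length and GC trends removed, 13 of the 17 calls were made again and 5 more members were called. In that fit 10 members rose and 8 fell. ELOVL6, FADS1, SREBF2 and TM7SF2 were no longer called, and FDPS, MVD, PMVK, SCD and STARD4 were added. ACACA and FASN have the longest transcripts of the group, at 9554 and 8565 bases, and their rises were 0.24 and 0.21 after the correction. With the close pairs of libraries averaged, 9 of the 17 calls were made again, among them those of ACLY, ACACA, EBP, INSIG1 and FADS2. Against 0 h at 3 h, all 10 calls were made again with the trends removed, and ACACA, EBP, FDPS, MSMO1 and PMVK were added. With these additions 2 members rose and 13 fell.

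**Figure D4:**
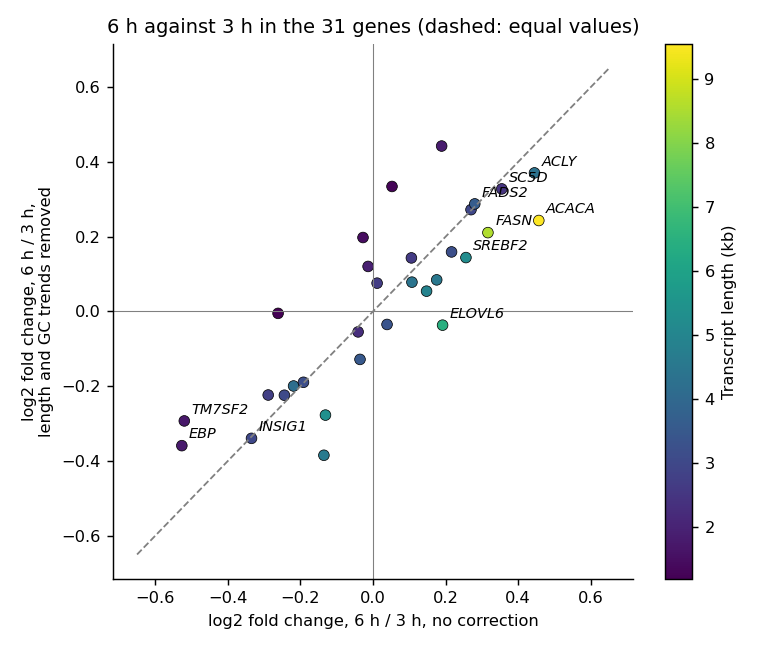
Log2 fold change at 6 h against 3 h of the 31 genes without (horizontal axis) and with (vertical axis) removal of each library's length and GC trends; colour is transcript length in kb and the dashed line marks equal values. ACACA and FASN, at 9554 and 8565 bases, lie below the line, and ELOVL6 crosses to -0.037.

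Levels per transcript length gave the order of the genes at 0 h, in CPM per kb. FDPS stood highest at 99.96, followed by ACLY at 70.5, EBP at 62.6 and SCD at 43.9. FADS1 and FADS2 were next to each other at 27.8 and 27.2, and ELOVL6 was at 24.3. STARD4 at 3.68, TM7SF2 at 4.57, HSD17B7 at 4.88 and SQLE at 5.35 stood lowest. Over the 17 libraries, the highest CPM exceeded the lowest 2.02-fold for EBP and 1.93-fold for TM7SF2. By mean level, 11 of the 31 genes were lowest at 3 h, 8 at 6 h and 7 at 24 h, whereas 8 were highest at 24 h. The same counts were not made over all genes.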

How the data were processed

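RNA was sequenced from 17 libraries of MDA-MB-231 cells at 6 times with TRAIL (TruSeq Stranded mRNA, paired-end, per the labels' protocols). The authors deposited expected counts per gene from RSEM, per the file name; the submitters' processing notes name cutadapt 1.18, STAR 2.7.0f and hg38, and the RSEM version, annotation and strand setting are not given in the sources used here. Of the expected counts in the tested libraries, 10.8% were not whole. Counts were rounded and fitted with edgeR 4.0.16 in R 4.3.3 (filterByExpr, TMM scaling, robust quasi-likelihood F-test, 1 mean per time, all 17 libraries); p-values were adjusted by Benjamini-Hochberg over 15365 genes, and 0.05 was the threshold. The biological coefficient of variation was 7.06%. CPM used TMM-scaled totals; log2 CPM had a prior count of 2. Positions and lengths came from GENCODE 29 (58552 of 58870 entries matched by Ensembl ID). Totals of 13731520 to 19234924 counts set the precision, and HSD17B7 rested on as few as 69 counts in a library. Alternatives were RLE, upper-quartile and library-size scaling, no filter, a mean count of 10, a replicate block, removal of length and GC trends, fits of 2 times only, averaged close pairs, each library left out, limma 3.58.1 voom and DESeq2 1.42.0.

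The members, lists, motifs and tests were chosen with earlier results of these data known. Values by library are given for INSIG1, SREBF1, SREBF2 and the 9 other members with the smallest p over all times; other members are named where called, those without a call by their range, and, from each of the 7 lists of neighbouring genes, at most the 3 genes with the smallest p over all times; 1 such gene is not reported here. Values by library of MVK, FASN and TM7SF2 were added after they were seen.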

Additional observations from a re-analysis of the deposited data

How the results depend on the processing

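The 31 genes had 71 calls, of which 26 were made in all 29 alternatives; of 2059 refits 1808 kept direction and side of the threshold. Averaging the close replicates 2 and 3 at 6 h and 24 h lost 26 of the 71 calls, leaving out 6 h replicate 3 lost 25, and leaving out 6 h replicate 2 lost 21. Deviations from the time means of same-numbered libraries of different times had correlations of -0.199 to 0.211 (median 0.0108, 8 of 40 pairs over 0.1). For libraries with different numbers they were -0.163 to 0.199 (median -0.0086, 14 of 80 pairs over 0.1). Of 17 libraries, 7 correlated best with their own number. With 2 or 3 libraries per time, these values do not show whether a number marks a shared culture or day. With the replicate block no call was lost, and 24 genes changed over all times in place of 25. The rise of ELOVL6 at 6 h against 3 h changed sign with length and GC trends removed (-0.037, and -0.037 with the block as well); the alternative itself removes the trend that differs between these times. Where no cause is named for the following values, the cause was not tested. The counts below are of members only. The share of all genes called under each setting is not given here, so the counts do not show what is particular to the members. By library size alone, the median log2 fold change was -0.072 after 1 h, -0.19 after 3 h, 0.099 after 24 h, 0.11 for 6 h against 3 h and 0.070 for 24 h against 12 h. It gave 0 rises after 3 h, 2 after 12 h and 5 after 24 h, 4 falls at 6 h against 3 h, 1 fall at 12 h against 6 h, and 4 rises and 1 fall at 24 h against 12 h. Upper-quartile scaling gave 16 falls and a median of -0.16 at 6 h, 2 rises at 12 h, 5 rises and a median of -0.023 at 6 h against 3 h, 1 fall and a median of 0.076 at 12 h against 6 h, and 1 rise at 24 h against 12 h. Removing length and GC trends, without or with the block, gave 2 rises after 3 h, 3 after 12 h, 4 after 24 h and 5 for 24 h against 12 h, 6 and 8 falls at 3 h against 1 h, and a median of 0.075 at 6 h against 3 h; with the block the median was 0.068 at 24 h against 12 h. Fits of 2 times only gave 2 rises at 3 h and 1 at 24 h against 12 h, no filter gave 3 falls at 6 h against 3 h, and DESeq2 gave 2 rises at 12 h. Averaged pairs gave 1 rise and 5 falls at 6 h, 4 rises at 6 h against 3 h, 1 fall at 12 h against 6 h, and 0 rises, 0 falls and a median of 0.077 at 24 h against 12 h. With 1 library left out, rises ranged from 0 to 2 after 3 h, 1 to 4 after 6 h, 0 to 2 after 12 h, 1 to 5 after 24 h, 4 to 11 for 6 h against 3 h and 0 to 3 for 24 h against 12 h. Falls ranged from 5 to 9 after 3 h, 3 to 11 after 6 h, 3 to 6 after 12 h, 0 to 4 for 3 h against 1 h, 3 to 7 for 6 h against 3 h, 1 to 4 for 12 h against 6 h and 0 to 2 for 24 h against 12 h. Medians ranged from -0.034 to 0.015 after 1 h, -0.16 to -0.091 after 3 h, -0.14 to -0.071 after 6 h, -0.14 to -0.000287 after 12 h, -0.020 to 0.042 after 24 h, -0.15 to -0.087 for 3 h against 1 h and -0.011 to 0.075 for 24 h against 12 h. Leaving out a 1 h library leaves 1 sample there, taken to vary like the other times. HSD17B7 and TM7SF2 had the fewest counts of the members, which limits the precision of their values; whether depth set the loss of their calls was not tested.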

Other observations

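Genes next to the 2 synthesis routes were read from 7 lists with 78 genes in all, each of which was tested; 61 changed over all times (78.2%, against 64.2% of all genes; edgeR quasi-likelihood test, Benjamini-Hochberg adjustment). At 3 h 3 rose (3.85%, against 9.04% of all genes) and 18 fell (23.1%, against 8.71%). At 6 h 18 rose (23.1%, against 16.9%) and 11 fell (14.1%, near the 13.2% of all genes). At 12 h 6 rose and 6 fell (7.69% each, against 5.96% and 6.48%), and at 24 h 17 rose (21.8%, against 18.0%) and 14 fell (17.9%, against 17.1%), all near the background. At 6 h against 3 h 33 rose (42.3%, against 22.9%) and 9 fell (11.5%, against 20.3%). Values of these genes under the alternatives are not given here. The length trend described for the libraries moves with the same step, and also from 0 h to 24 h. In the list of lipid droplet and glycerolipid genes, 4 of 11 fell at 3 h (36.4%, against 8.71%) with none rising, and 5 rose (45.5%, against 18.0%) and 2 fell (18.2%, against 17.1%) at 24 h. PLIN3, a coat protein of lipid droplets, measured 135, 154 and 154 CPM at the start, 120, 114 and 123 after 3 h, and 202, 204 and 200 after 24 h. Its 3 h libraries were all below and its 24 h libraries all above those at 0 h, with a fall of 0.31 and a rise of 0.45 on the log2 scale. PLIN2, another coat protein, fell by 0.35 at 3 h and rose by 0.33 at 12 h. DGAT1, which makes triglycerides, fell by 0.35 at 12 h and by 0.33 at 24 h. In the list of other fatty acid genes, ACSL3, which activates fatty acids, fell by 0.37 at 3 h and rose by 0.41 at 6 h against 3 h. ELOVL5, an elongase of polyunsaturated fatty acids, fell by 0.29 at 3 h and rose by 0.31 at 6 h. TECR, the reductase of the last elongation step, fell by 0.34 at 6 h, 0.24 at 12 h and 0.28 at 24 h.

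In the list of sterol uptake and movement, the genes for the pair of lysosomal cholesterol exporters went opposite ways. NPC1 measured 90.0, 93.3 and 92.7 CPM at the start and 115, 125 and 130 after 24 h, and rose by 0.42. NPC2 measured 225, 212 and 215 CPM at the start and 172, 139 and 139 after 24 h, and fell by 0.53. Neither gene's groups overlapped. The mean length slope was -0.037 at 0 h and 0.095 at 24 h. Values with this trend removed are not given for the genes of this paragraph. TMEM97, a membrane protein that binds NPC1, fell by 0.33 at 12 h and by 0.49 at 24 h. In the list of sterol export and LXR targets, NR1H3, the gene of the sterol receptor LXR alpha, fell by 0.43 at 3 h and by 0.42 at 6 h. MYLIP, a ubiquitin ligase, fell by 0.52 at 1 h (adjusted p = 0.0414), the only call of the 78 genes at that time, by 0.36 at 3 h and by 0.38 at 24 h. ABCA1, which exports cholesterol from cells, fell by 0.71 at 3 h (adjusted p = 0.0132) and by 0.65 at 12 h (adjusted p = 0.0226), and at 6 h it was not called (-0.13). PPARA, a receptor that drives fatty acid oxidation genes, measured 10.4, 11.7 and 11.8 CPM at the start and 18.8, 27.1 and 22.9 after 24 h. It rose by 1.02 ± 0.12 (SE) with no overlap between the groups, which was more than any of the 31 synthesis genes moved. In its list of 12 fatty acid oxidation genes, 4 rose (33.3%, against 18.0%) and 2 fell (16.7%, near the 17.1% of all genes) at 24 h. CPT1A, which lets fatty acids into mitochondria, rose by 0.27 at 24 h, and HADH, a dehydrogenase of the oxidation cycle, fell by 0.35 at 12 h and by 0.31 at 24 h. In the list of isoprenoid branches, COQ2, of coenzyme Q synthesis, fell by 0.39 at 6 h against 3 h, and GGPS1, which makes geranylgeranyl diphosphate, rose by 0.35 at 12 h against 6 h.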
